A study of Rattus norvegicus with 36 samples.

Results

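The interferon response and antigen processing genes described here are Isg15, Cxcl10, Bst2, Irf7, Irf9, Stat2, Psmb8, Psmb9 and B2m. They were chosen by name. All 9 are among the 12943 rat genes listed in the deposited table, and all 9 passed the filter on low values (at least 1 CPM in at least 4 libraries), which left 12487 genes for testing. The RNA came from iAM-1 cells, a single line of conditionally immortalised atrial muscle cells of newborn Wistar rats, which carry a transferred large T antigen gene. The 36 poly(A)-selected libraries cover 9 days with 4 libraries each. D0 cells were dividing and received 100 ng/ml doxycycline; D1, D2, D3 and D9 are days of differentiation without it; D10, D11, D12 and D18 are days of dedifferentiation with 100 ng/ml doxycycline again. Whether the 4 libraries of a day represent separate cultures is not given in the labels. P-values therefore reflect spread between libraries that may be technical.

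Type I interferons signal through their receptor and JAK kinases to a complex that contains Stat2 and Irf9 and binds interferon-stimulated response elements and switches on a large set of antiviral genes. Irf7 is itself induced and amplifies the interferon genes. Interferon-gamma acts at other sites and, with Irf1 and Nlrc5, raises the genes of class I antigen presentation. In that pathway Psmb8 and Psmb9 replace constitutive catalytic subunits of the proteasome, the Tap transporter carries the peptides into the endoplasmic reticulum, and B2m is the light chain of every class I molecule. Interferon-induced genes rise in viral inflammation of the heart.

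Promoter windows were available from RefSeq (assembly GRCr8, 250 bases before to 50 after the gene's start) for 8 of the 9 genes; Isg15 is the other one. The letters GAAANNGAAA, the core of the interferon-stimulated response element, were searched on both strands. They occur in 3.92% of the 33469 windows of this length. Among the genes they occur in the windows of Cxcl10, Bst2, Irf7, Psmb8 and B2m. No match was found in those of Irf9, Stat2 and Psmb9, which says only that these letters are not in those windows. The 5 windows with a match are printed, with that of Psmb9 as an example without a match. Each is printed 5′ to 3′ on the gene's strand, from 250 bases before to 20 bases after the start, and capitals mark the match.
Cxcl10, chr14:15988816-15989085, plus strand: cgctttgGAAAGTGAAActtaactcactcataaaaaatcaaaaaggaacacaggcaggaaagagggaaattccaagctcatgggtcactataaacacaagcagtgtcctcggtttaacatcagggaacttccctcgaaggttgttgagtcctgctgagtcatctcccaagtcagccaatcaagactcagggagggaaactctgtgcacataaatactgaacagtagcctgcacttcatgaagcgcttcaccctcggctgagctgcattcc
Bst2, chr16:18254948-18255217, minus strand: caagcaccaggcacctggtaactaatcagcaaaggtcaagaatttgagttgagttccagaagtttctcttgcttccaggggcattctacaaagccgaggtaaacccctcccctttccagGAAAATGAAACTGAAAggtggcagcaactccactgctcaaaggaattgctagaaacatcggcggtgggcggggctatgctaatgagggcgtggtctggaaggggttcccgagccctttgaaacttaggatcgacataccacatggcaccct
Irf7, chr1:205800004-205800273, minus strand: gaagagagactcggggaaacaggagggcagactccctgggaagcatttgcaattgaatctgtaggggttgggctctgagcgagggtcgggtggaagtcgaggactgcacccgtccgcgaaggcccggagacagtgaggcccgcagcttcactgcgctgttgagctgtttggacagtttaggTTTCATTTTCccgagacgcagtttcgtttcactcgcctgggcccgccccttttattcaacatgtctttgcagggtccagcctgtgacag
Psmb8, chr20:4657012-4657281, minus strand: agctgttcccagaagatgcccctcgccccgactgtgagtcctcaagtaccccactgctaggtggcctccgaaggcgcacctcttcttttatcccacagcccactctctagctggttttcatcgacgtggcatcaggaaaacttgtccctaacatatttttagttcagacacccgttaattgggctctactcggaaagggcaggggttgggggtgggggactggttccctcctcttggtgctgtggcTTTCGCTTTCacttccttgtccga
B2m, chr3:129549080-129549349, plus strand: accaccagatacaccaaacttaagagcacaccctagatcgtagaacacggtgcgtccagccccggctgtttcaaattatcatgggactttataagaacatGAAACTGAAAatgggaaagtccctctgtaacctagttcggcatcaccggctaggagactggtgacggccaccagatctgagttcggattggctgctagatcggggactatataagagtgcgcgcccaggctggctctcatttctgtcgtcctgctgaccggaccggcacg
Psmb9, chr20:4668750-4669019, plus strand: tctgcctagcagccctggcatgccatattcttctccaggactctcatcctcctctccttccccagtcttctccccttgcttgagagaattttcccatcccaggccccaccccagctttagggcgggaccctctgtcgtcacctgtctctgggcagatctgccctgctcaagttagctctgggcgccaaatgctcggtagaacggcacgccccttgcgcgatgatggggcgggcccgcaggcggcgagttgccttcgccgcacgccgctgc
In Cxcl10 the match lies 243 to 234 bases before the start. Bst2 has 2 matches that overlap each other, from 131 to 122 and from 125 to 116 bases before the start. In Irf7 and Psmb8 the match is on the opposite strand, from 69 to 60 bases before the start in Irf7 and across the start in Psmb8. In B2m it lies 150 to 141 bases before the start. The letters TTCNNNGAA of the interferon-gamma activated site read the same on both strands and occur in 8.87% of all windows. They were found at 1 place each in Bst2 (137 to 129 bases before the start, overlapping the first response element match), Irf9 and Psmb8. The NF-kappaB core GGGNNNNNCC occurs in 47.3% of all windows and in those of Cxcl10, Bst2, Irf7, Stat2, Psmb9 and B2m. A match is a description of the sequence, not a binding site.

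Levels are given in CPM, the authors' read counts, each with 0.5 added, scaled to an effective library size, with the SD over the 4 libraries of a day after the ± sign. Between 14.9 and 43.1 M reads were recovered for each library (median 18.5 M). The fewest reads in any library were 42 for Cxcl10 and 44 for Isg15, and B2m had at least 9562. Day means were compared with limma on log2(CPM + 0.5), with adjusted p-values (Benjamini-Hochberg) over all 12487 genes. A gene is called changed at an adjusted p under 0.05. Fold changes are on that scale, which understates changes of low genes. T antigen RNA averaged 2956 CPM at D0, 32.0 at D9 and 4949.8 at D18. Doxycycline, T antigen RNA and the time in culture changed together with the days, so their parts in any difference cannot be told apart. The libraries of D10, D11 and D12 spread most, with a median SD per gene of up to 0.252 on the log2 scale (D12) against 0.0728 at D1.

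Between D0 and D9, when the cells had differentiated, 6 of the 9 genes fell and 3 were not called, beside 71.4% of all genes called in that comparison, 34.4% higher and 37% lower. The induced effectors Cxcl10, Isg15 and Bst2 fell furthest, to 9.56%, 15.4% and 23.9% of their D0 mean CPM. The immunoproteasome subunits Psmb8 and Psmb9 fell to 39.3% and 40.5%, and Irf7 to 53.2%. Irf9, Stat2 and B2m were not called. On the deposited TPM table Stat2 and B2m were called lower too, which made 8 of the 9, beside 74.4% of all genes called. From D9 to D18, 5 genes rose (Cxcl10, Bst2, Irf7, Psmb8 and Psmb9) and Irf9 fell, beside 66.1% of all genes called, 33.6% higher and 32.5% lower. Against D0, 7 were lower at D18, beside 52% of all genes called, 28.7% higher and 23.2% lower. Without D0 library 1, or without D18 library 1, that count was 4, beside 48.1% and 48.6% of all genes called. Irf7, Stat2 and Psmb8 were then no longer called. The 3 comparisons share libraries with each other and are not independent.

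**Figure D1:**
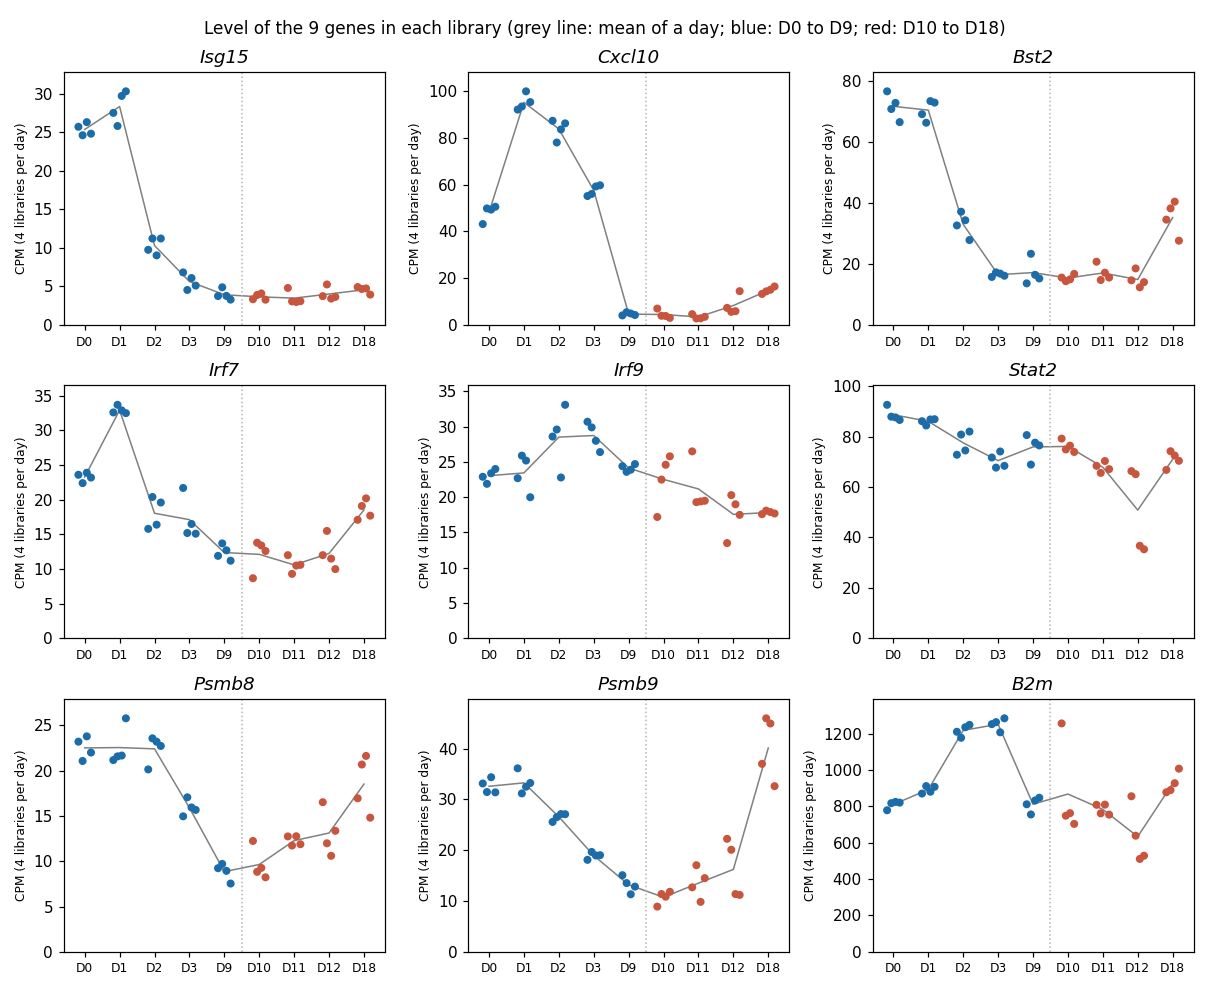
CPM of each of the 9 genes (vertical axis, linear, from 0) in each library on the 9 sampled days (horizontal axis); points are single libraries, the grey line joins day means and the dotted line marks the return of doxycycline after D9. Isg15 stays between 2.96 and 5.24 CPM from D9 on, while Psmb9 at D18 (32.6 to 45.95 CPM) reaches its D0 range of 31.38 to 34.36 CPM and beyond.

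**Figure D2:**
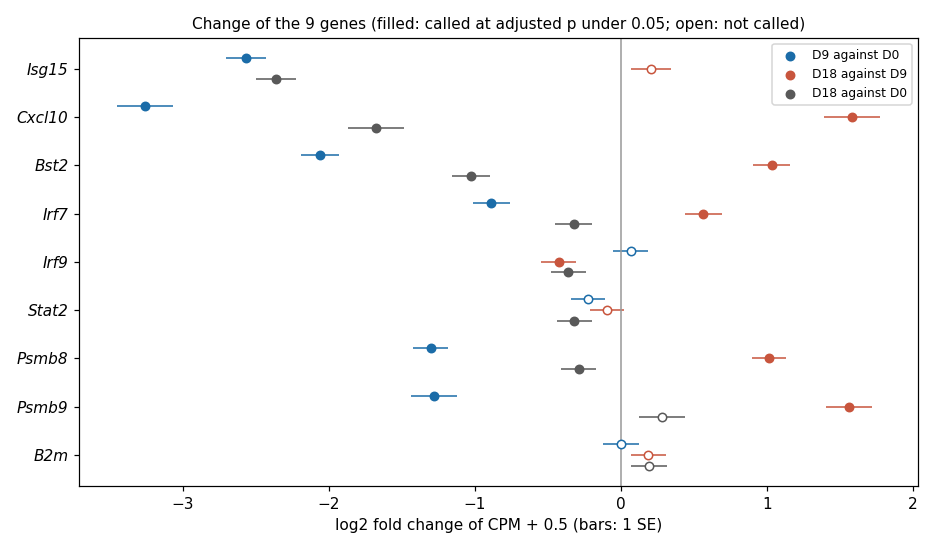
Log2 fold change of CPM + 0.5 (horizontal axis, bars 1 SE) of the 9 genes (vertical axis) for D9 against D0, D18 against D9 and D18 against D0, filled where called. Cxcl10 has the lowest value (-3.26, D9 against D0); Irf9, Stat2 and B2m stay within 0.43 of 0 in all 3 comparisons.

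Stat2 and Irf9 are parts of the interferon-activated complex, and Irf7 is a factor that interferon itself induces. Stat2 measured 92.6, 87.9, 87.6 and 86.6 CPM in the D0 libraries and 80.6, 68.9, 77.6 and 76.5 in the D9 libraries. At D18 it measured 66.8, 74.2, 72.5 and 70.4 CPM. Every D9 and D18 library lay below the D0 libraries, but the differences were small. Stat2 was not called between D9 and D0 (log2 -0.22, SE 0.12, adjusted p = 0.0890; limma). Without the D10, D11 and D12 libraries, a fit chosen after seeing the data, that difference was called (limma, adjusted p = 0.000229). In a fit of D9 and D0 alone it was called too (limma, adjusted p = 0.00289). Across all alternatives the adjusted p ranged from 0.000138 to 0.214. Stat2 was called lower at D18 than at D0 (log2 -0.32, SE 0.12, limma, adjusted p = 0.0238). At D12, 2 libraries stood at 66.3 and 65.1 CPM and the other 2 at 36.7 and 35.3. The fall from D11 to D12 (log2 -0.48) and the rise from D12 to D18 (log2 0.54) were both called, but rested on those 2 low libraries: without them the values were -0.05 and 0.11 and neither was called.

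Irf9 binds DNA in that complex. It measured 22.9, 21.9, 23.4 and 24.0 CPM at D0 and 24.4, 23.6, 23.9 and 24.7 at D9, so the days overlapped (log2 0.07, SE 0.12, adjusted p = 0.630; limma). Its highest means were at D2 (28.5 ± 4.28) and D3 (28.8 ± 1.93 CPM), and no step between neighbouring days was called. At D18 it measured 17.6, 18.1, 17.9 and 17.7 CPM, below every D0 and D9 library. Of the group, Irf9 was the one gene called lower at D18 than at D9 (log2 -0.43, SE 0.12, adjusted p = 0.00235; limma). On the TPM table, where the median gene itself shifts by 0.34, that value was -0.08 and was not called.

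Irf7 measured 23.6, 22.4, 23.9 and 23.2 CPM at D0 and rose within 1 day of doxycycline withdrawal to 32.6, 33.7, 32.9 and 32.5 (D1 against D0 log2 0.49, SE 0.13, adjusted p = 0.00834; limma). It then fell from D1 to D2 (log2 -0.86, SE 0.13) and again between D3 and D9 (log2 -0.44, SE 0.13). At D9 it measured 11.9, 13.7, 12.7 and 11.2 CPM, with no overlap with D0 (log2 -0.89, SE 0.13). It stayed between 8.67 and 15.5 CPM from D10 to D12 and rose to 17.1, 19.1, 20.2 and 17.7 CPM at D18 (log2 0.56, SE 0.13 against D9). All D18 libraries lay between the D9 and the D0 libraries. The difference between D18 and D0 was called weakly (log2 -0.32, SE 0.13, adjusted p = 0.0314; limma); over the alternatives run, its adjusted p ranged from 0.00132 to 0.0844.

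The effectors Isg15, Bst2 and Cxcl10 are target genes of the pathway. Isg15 encodes a ubiquitin-like protein that is attached to other proteins during the antiviral response. It measured 25.7, 24.6, 26.3 and 24.8 CPM at D0 and 3.73, 4.87, 3.75 and 3.27 at D9 (log2 -2.56, SE 0.14, adjusted p = 1.44e-17; limma). The fall came mostly between D1 and D3. Isg15 averaged 28.3 ± 2.07 CPM at D1, 10.3 ± 1.10 at D2 and 5.62 ± 1.01 at D3, and the steps to D2 (log2 -1.42, SE 0.14), to D3 (log2 -0.83, SE 0.14) and to D9 (log2 -0.47, SE 0.14) were all called. At D18 it measured 4.90, 4.65, 4.72 and 3.92 CPM, which overlaps the D9 libraries (log2 0.20, SE 0.14, adjusted p = 0.190; limma). The D18 level was 17.9% of the D0 mean (log2 -2.36, SE 0.14 against D0). T antigen RNA at D18 ranged from 4578 to 5474 CPM, beside 2732 to 3098 at D0. Its part in the level of Isg15 was not tested. Between D18 and D9 the sign for Isg15 depended on the scaling: log2 -0.17 after quantile normalization and 0.55, then called, on the TPM table.

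Bst2 encodes tetherin, a membrane protein that holds budding virus particles on the cell. It measured 76.6, 70.8, 72.8 and 66.5 CPM at D0 and 69.1, 66.3, 73.4 and 72.9 at D1, so the first day brought no change that was called (log2 -0.02, adjusted p = 0.940; limma). It fell from D1 to D2 (log2 -1.09, SE 0.13) and from D2 to D3 (log2 -0.97, SE 0.13). At D3 it had reached 16.4 ± 0.676 CPM, near its D9 mean of 17.1 ± 4.27, and the step between them was not called (log2 0.03, adjusted p = 0.880; limma). The D9 libraries measured 13.6, 23.3, 16.4 and 15.2 CPM, all below every D0 library (log2 -2.06, SE 0.13). It stayed between 12.3 and 20.7 CPM through D12. At D18 the libraries measured 34.5, 38.2, 40.4 and 27.6 CPM, above all D9 and below all D0 libraries (log2 1.03, SE 0.13 against D9; -1.03, SE 0.13 against D0). The rise fell between D12 and D18 (log2 1.22, SE 0.13, adjusted p = 4.87e-09; limma).

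Cxcl10 encodes a chemokine that draws T cells and is induced by interferon-gamma and other inflammatory signals. Its course differed from those of Isg15 and Bst2. It measured 43.1, 49.8, 49.3 and 50.5 CPM at D0 and 92.1, 93.4, 99.9 and 95.3 at D1 (log2 0.98, SE 0.19, adjusted p = 0.000611; limma). At D2 and D3 it averaged 83.8 ± 4.15 and 57.5 ± 2.29 CPM, and neither step was called (adjusted p = 0.466 and 0.0602; limma). On CPM, every D1, D2 and D3 library was above every D0 library. On TPM, the D3 libraries (99.98 to 107.2) overlapped those of D0 (90.89 to 107.6). Between D3 and D9 Cxcl10 then fell to 4.01, 5.38, 4.83 and 4.20 CPM (log2 -3.51, SE 0.19, adjusted p = 1.07e-15; limma). Between D9 and D0 the change was log2 -3.26 (SE 0.19), the lowest value among the 9 genes. It rose from 3.37 ± 0.854 CPM at D11 to 8.25 ± 4.16 at D12 (log2 1.10, SE 0.19), where 1 library stood at 14.4 and the others at 5.54 to 7.24. The D18 libraries measured 13.2, 14.3, 15.0 and 16.4 CPM, above all D9 libraries (log2 1.58, SE 0.19) and below all D0 libraries (log2 -1.68, SE 0.19).

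Psmb8 and Psmb9 are subunits of the immunoproteasome, which yields peptides that suit class I molecules. Psmb8 measured 23.2, 21.07, 23.79 and 22.0 CPM at D0 and 9.231, 9.704, 8.939 and 7.537 at D9 (log2 -1.30, SE 0.12). Its means at D1 and D2 (100% and 99.5% of D0) were those of D0 within the spread, and the falls from D2 to D3 (log2 -0.48, SE 0.12) and from D3 to D9 (log2 -0.82, SE 0.12) were called. At D18 it measured 16.95, 20.68, 21.63 and 14.81 CPM, above all D9 libraries (log2 1.01, SE 0.12) and overlapping D0. The difference between D18 and D0 was a weak call (log2 -0.29, SE 0.12, adjusted p = 0.0419; limma). Over the alternatives run that adjusted p ranged from 0.0108 to 0.200.

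Psmb9 measured 33.13, 31.44, 34.36 and 31.38 CPM at D0 and 15.08, 13.53, 11.32 and 12.83 at D9 (log2 -1.28, SE 0.16). The step from D2 to D3 was called at an adjusted p of 0.0411 (log2 -0.48, SE 0.16; limma) and was lost when any 1 of the 8 libraries was left out. The step from D3 to D9 was called as well (log2 -0.51, SE 0.16). It averaged 16.2 ± 5.77 CPM at D12 and measured 36.99, 45.95, 44.93 and 32.60 CPM at D18, above all D9 libraries (log2 1.56, SE 0.16). The rise from D12 to D18 was log2 1.33 (SE 0.16), and 0.90 without D12 libraries 3 and 4, which were low for this gene too (11.36 and 11.20 CPM, the others 22.23 and 20.08). Psmb9 at D18 was not called different from D0 (log2 0.28, SE 0.16, adjusted p = 0.131; limma). It was called higher than D0 in a fit of D18 and D0 alone (limma, adjusted p = 0.0211). It was also called in a fit without the D10, D11 and D12 libraries (limma, adjusted p = 0.00542). The latter was an alternative chosen after seeing the data. Across all alternatives the adjusted p ranged from 6.67e-05 to 0.307.

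Psmb8 takes the place of Psmb5 in the assembled proteasome and Psmb9 that of Psmb6, so each was also set against its constitutive counterpart on TPM, which corrects for transcript length. Psmb8 stood at 18.8 ± 0.757% of Psmb5 at D0, 8.48 ± 0.425% at D9 and 14.4 ± 2.66% at D18. Psmb9 stood at 51.0 ± 2.79% of Psmb6 at D0, 26.0 ± 3.54% at D9 and 63.3 ± 8.00% at D18. The groups of 4 libraries did not overlap in any of the 6 comparisons (exact two-sided permutation test, p = 0.0286 each, adjusted p = 0.0286, the smallest that 4 against 4 allows). Against D0, the D18 share was lower for Psmb8 and higher for Psmb9. The constitutive subunits moved less. Of 14 constitutive subunits of the proteasome core, 11 fell and 1 rose between D0 and D9, beside 71.4% of all genes called (34.4% higher, 37% lower). Their median log2 was -0.23, and Psmb5 and Psmb6 changed by log2 -0.20 and -0.32. Psmb10, another immunoproteasome subunit, fell by 1.55 on the log2 scale (SE 0.11) to D9, rose by 1.65 to D18 and was not called between D18 and D0 (log2 0.10, adjusted p = 0.459; limma).

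**Figure D3:**
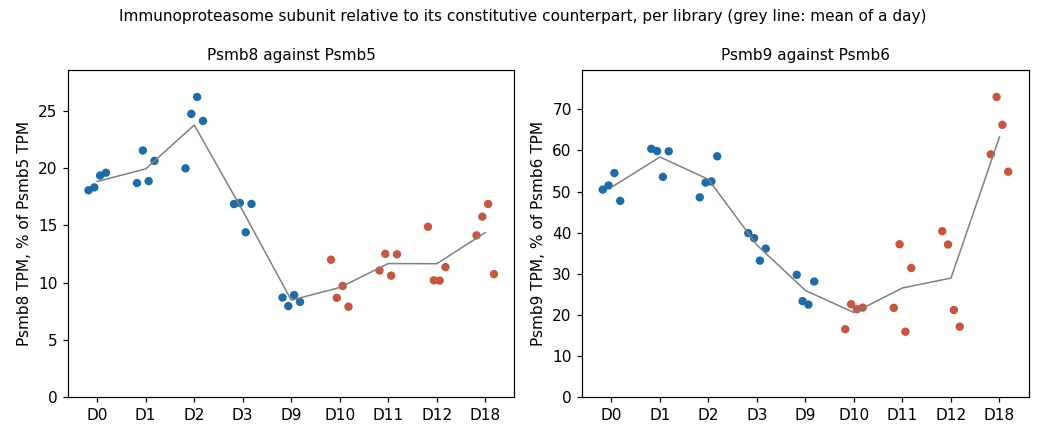
Psmb8 TPM as a percent of Psmb5 TPM (left) and Psmb9 TPM as a percent of Psmb6 TPM (right) in each library (points) by day, with day means joined by the grey line. Both shares are lowest at D9 or D10, and all D18 libraries lie above all D9 libraries.

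B2m was by far the most abundant of the 9 genes per transcript length, at 1062 ± 29.7 TPM at D0, 845 ± 69.2 at D9 and 1234 ± 88.3 at D18. In CPM it measured 779, 818, 825 and 821 at D0 and rose to a mean of 1218 at D2 and 1252 at D3. The step from D1 to D2 was called (log2 0.45, SE 0.12, adjusted p = 0.00365; limma), and was not called on the TPM table (log2 0.25) or after quantile normalization (log2 0.13). It then fell from D3 to D9 (log2 -0.63, SE 0.12). At D9 it measured 812, 756, 833 and 848 CPM, which overlaps D0 (log2 0.00, SE 0.12, adjusted p = 0.990; limma). On the TPM table, B2m moved from D0 to D9 by log2 -0.33 and was called (limma, adjusted p = 0.00973). The median of all genes moved by -0.34 there. After quantile normalization B2m moved by -0.33 as well and was called (limma, adjusted p = 0.0333), where the median of all genes moved by 0.08. At D18 it measured 878, 890, 928 and 1008 CPM, above every D0 and D9 library, but was not called (log2 0.19, SE 0.12 against each, adjusted p = 0.195 and 0.177; limma). In the fit without the D10, D11 and D12 libraries both were called (limma, adjusted p = 0.000259 and 0.000211). That fit was chosen after seeing the data. Fits of the compared days alone also called both (limma, adjusted p = 0.00424 against D0 and 0.0162 against D9). Over all alternatives the adjusted p ranged from 0.000259 to 0.368 against D0 and from 1.47e-06 to 0.343 against D9. At D12 the libraries measured 856, 639, 511 and 529 CPM; the fall from D11 was called (log2 -0.34), and without the 2 libraries that were also low in Stat2 it was -0.08 and not called.

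Per transcript length the order of levels at D0 was B2m, Bst2 (206 ± 11.1 TPM), Cxcl10 (102 ± 7.52), Stat2 (52.9 ± 1.53), Psmb9 (51.4 ± 1.89), Isg15 (46.1 ± 1.14), Irf9 (34.6 ± 1.38), Irf7 (28.3 ± 0.637) and Psmb8 (19.1 ± 0.911). Stat2 and Psmb9 were within their spread of each other. At D9 Stat2 (36.0 ± 3.45 TPM) and Bst2 (38.7 ± 8.26) were within their spread, Cxcl10 had dropped from place 3 to place 7 (7.69 ± 0.852), and Isg15 (5.61 ± 0.774) and Psmb8 (5.95 ± 0.529) were the lowest and within their spread. At D18 Psmb9 stood in place 3 (64.2 ± 9.11 TPM) and Isg15 was lowest (8.42 ± 0.772).

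Between neighbouring days, the 9 genes did not move on the same days. On the first day without doxycycline 2 rose, Cxcl10 and Irf7, and none fell, beside 12.3% of all genes called (7.9% higher, 4.35% lower). From D1 to D2 Isg15, Bst2 and Irf7 fell and B2m rose, beside 41.5% called (21.6% higher, 20% lower). From D2 to D3 Isg15, Bst2, Psmb8 and Psmb9 fell, beside 12.6% called (2.92% higher, 9.68% lower). From D3 to D9 Isg15, Cxcl10, Irf7, Psmb8, Psmb9 and B2m fell, beside 43.4% called (18.4% higher, 25% lower). On the first day with doxycycline again, from D9 to D10, none of the 9 was called by limma (0), beside 3.63% of all genes (2.36% higher, 1.27% lower). None had an unadjusted p under 0.05, and edgeR on the recovered reads called 0 as well, beside 3.57% of all genes. From D10 to D11 only Psmb8 was called (log2 0.35, adjusted p = 0.0300; limma), beside 25.5% of all genes called (15.7% higher, 9.84% lower). That call was lost under several alternatives, with an adjusted p between 0.00162 and 0.341. From D11 to D12 Cxcl10 rose and Stat2 and B2m fell, beside 40% called (18.7% higher, 21.3% lower), with the 2 low D12 libraries noted above. From D12 to D18, 7 genes rose, all but Isg15 and Irf9, and none fell, beside 48.9% of all genes called (25.4% higher, 23.5% lower). The count was 6, without Stat2, when D12 libraries 3 and 4 were left out (44.6% of all genes called), and 5 in the fit of the 8 libraries of D12 and D18 (28.7% called).

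Across the 36 libraries the courses of the genes were alike to different degrees. The Pearson r of the 36 pairs, on log2(CPM + 0.5), ran from -0.02 (Irf9 and Psmb9) to 0.91 (Bst2 and Isg15), with a median of 0.56. It was above 0.5 in 19 pairs. The libraries of a day share their culture conditions, so this describes the courses only. Over all tested genes, the gene most like Isg15 in course was LOC100911486 (r = 0.98), and those most like the other genes were Ptgfrn for Cxcl10 (0.97), RGD1624210 for Bst2 (0.95), Reck for Irf7 (0.93), Irak4 for Irf9 (0.89), Igsf3 for Stat2 (0.87), Cd109 for Psmb8 (0.94), Acd for Psmb9 (0.95) and Asah1 for B2m (0.92). The 3 closest genes included Gbp5, a guanylate-binding protein induced by interferon, for Cxcl10 (r = 0.97). For B2m they included RT1-A2, a rat class I heavy chain (r = 0.92). Gbp5 and RT1-A2 are named for their part in the pathway. The r values were not set against those of other gene pairs.

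Other genes of the pathway were taken from lists of sensors, receptors and signalling factors, effectors, chemokines and class I presentation genes. Leaving the 9 genes out, 112 of these were tested. Between D0 and D9, 65 fell, 17 rose and 30 were not called, with a median log2 of -0.41 beside -0.02 over all genes. Of all genes, 71.4% were called, 34.4% higher and 37% lower. From D9 to D18, 45 rose, 26 fell and 41 were not called (median 0.18, all genes 0.00), beside 66.1% called (33.6% higher, 32.5% lower). Between D0 and D18, 45 were lower, 11 higher and 56 not called (median -0.19, all genes 0.06), beside 52% called (28.7% higher, 23.2% lower). From D9 to D10, 2 rose and 3 fell, beside 3.63% called (2.36% higher, 1.27% lower). The same shares over all genes stand beside the counts of each list below.

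The receptor and signalling list, with Stat2, Irf7 and Irf9 in it, did not move one way. Of 19 tested, 4 rose and 9 fell to D9. The kinase Jak1 rose from 208 ± 7.51 to 513 ± 14.1 CPM at D9 (log2 1.30, SE 0.09) and was 227 ± 10.1 at D18. Of the receptor chains, Ifnar2 and Ifngr2 fell to D9 (log2 -0.52 and -0.55), Ifngr1 rose (log2 0.16, adjusted p = 0.0472; limma) and Ifnar1 was not called (log2 -0.01, adjusted p = 0.946; limma). The factor Irf1 fell by 0.81 on the log2 scale to D9 and rose by 0.56 to D18. Irf3, the factor that sensors activate, was higher at D9 (log2 0.34) and at D18 (log2 0.83) than at D0. Of 11 sensors and their adaptors, 6 fell and 4 rose to D9. The DNA sensor Mb21d1 (cGAS) went from 20.4 ± 1.63 CPM at D0 to 3.80 ± 0.384 at D9 and 19.1 ± 1.33 at D18, while its adaptor Tmem173 (STING) was low throughout, with 25 to 55 reads per library at D0, at most 1 at D9 and 2 to 4 at D18.

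Among 52 interferon-stimulated effectors, with Isg15 and Bst2 in the list, 35 fell and 6 rose to D9 (median log2 -0.63), and 21 rose and 14 fell from D9 to D18. At D18, 31 were still lower than at D0 and 2 were higher. Oasl, a relative of the oligoadenylate synthetases, had the lowest fitted change to D9. It had 76 to 236 reads per library at D0, 0 reads in 3 of the 4 D9 libraries and 2 in the other, and 1 to 4 at D18. Isg20, an exonuclease, went against most of the list, from 3.78 ± 0.854 CPM at D0 to 12.9 ± 1.66 at D9 and 2.42 ± 0.491 at D18. Of the 6 chemokine genes tested, with Cxcl10 in the list, 2 fell to D9 and 3 rose. The other that fell was Cxcl16 (log2 -1.52, SE 0.12). Cxcl12 was higher at D9 than at D0 (log2 1.03) and at D18 than at D9 (log2 1.18), but did not rise steadily. It averaged 4.135 CPM at D3, 2.54 at D9, 0.992 at D12 and 6.40 at D18, and had only 15 to 48 reads per library at D0.

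Of 33 class I genes tested, with Psmb8, Psmb9 and B2m in the list, 19 fell to D9 and none rose (median log2 -0.41), and 16 rose and 4 fell from D9 to D18. Tap1 fell by 1.27 (SE 0.11) and rose by 0.99, and Tap2 fell by 1.00 (SE 0.18) and rose by 0.67. The class I activator Nlrc5 was called neither between D9 and D0 (log2 -0.19, adjusted p = 0.263; limma) nor between D18 and D9 (log2 0.12, adjusted p = 0.475; limma). The class I heavy chain genes of the rat RT1 complex gave 18 entries, 8 lower at D9, 8 higher at D18 than at D9 and none lower. RT1-T24-1 moved furthest, from 9.49 ± 1.06 CPM at D0 to 0.714 ± 0.108 at D9 and 17.7 ± 2.23 at D18. RT1 genes are near copies of each other, so reads may be split between them and their single values are uncertain. Calr, a chaperone of class I assembly and of many other proteins, fell in both phases (log2 -1.42, SE 0.10 between D18 and D0). Of 11 class II genes, only Cd74 was tested, and it was not called in the 3 comparisons.

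**Figure D4:**
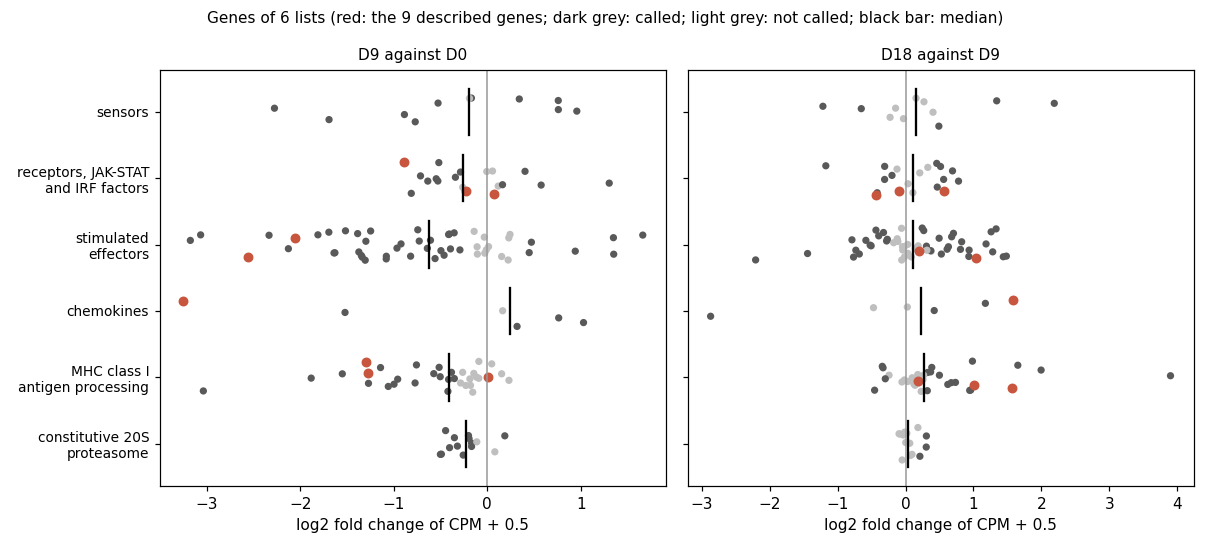
Log2 fold change of CPM + 0.5 (horizontal axis) of each tested gene in 6 lists (vertical axis), for D9 against D0 and D18 against D9; red points are the 9 described genes, dark grey points called genes, light grey points genes not called, and black bars the list medians. The effector list has the lowest median to D9 (-0.63), and that of the constitutive proteasome subunits is -0.23.

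Markers of other cell types differed between the days as well. Of 28 leukocyte markers, 4 (Cd14, Csf1r, Mrc1 and Coro1a) were listed in the table, and their sum was 6.31 to 8.60 CPM at D0, 1.08 to 1.67 at D9 and 1.28 to 2.02 at D18. Defining markers such as Ptprc and Cd68 were among the 28 but were not listed in the table, so their levels are not known here. Cd14 made up most of it (4.50 ± 0.516, 0.678 ± 0.0575 and 0.536 ± 0.192 CPM), while Mrc1 averaged 0.468, 0.416 and 0.791 CPM. Only Cd14 and Csf1r passed the filter on low values, and both were called lower at D9 and at D18 than at D0. Of 9 fibroblast markers, 6 were listed, with a median sum of 618 CPM at D0, 41.6 at D9 and 182 at D18. All 5 that were tested fell to D9, and from D9 to D18 Thy1 and Fbln1 rose, Col3a1 fell and 2 were not called. Thy1 was also among the 3 genes most like Psmb8 in course (r = 0.93), with Cd109 (0.94) and Sv2a (0.92). The 12 listed of 13 atrial muscle markers all rose to D9 and all fell to D18, with a median sum of 13707.5, 91458.6 and 22090.9 CPM. Of 8 endothelial markers 3 were listed, with a median sum of 24.8 CPM at D0, 262 at D9 and 194 at D18. Kdr rose to D9 (log2 3.79), Egfl7 fell (log2 -1.54) and Vwf was not called (log2 -0.40). The part of these cell types in the changes of the 9 genes was not tested. In bulk RNA, fewer cells of a type and less RNA per cell cannot be told apart.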

How the data were processed

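RNA of 36 iAM-1 libraries, 4 on each of 9 days, was analysed from the tables that the authors deposited. Rnor_6.0 (genome build) and edgeR 3.26.8 are named, without a role, in the submitters' processing notes. The read aligner is not given in the sources used here, nor is the counter. The CPM the authors deposited form a signal. Low values are odd multiples of 1 step per column, which is the pattern of reads plus 0.5; reads recovered on that basis were whole (100% of values up to 20 reads, tolerance 0.1). Column sums were 868992 to 1136457. The design had called this unit CPM. The deposited TPM, per the file headers, was used for levels between genes and for the subunit ratios. The table lists 12948 genes and construct entries; 760 of the rat genes had 0 reads in at least 1 library, and 5 construct entries were kept out of the fit.

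Each column was matched to a day by its culture label; 1 D1 column has a label that no D1 sample carries, and entered as an unnumbered D1 library. No 2 libraries of a day agreed within sampling noise (lowest mean chi-square 1.93, where sampling noise gives about 1).

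Days were compared with limma 3.58.1 in R 4.3.3, by lmFit and trended eBayes of log2(CPM + 0.5), in 1 fit of 36 libraries with a mean per day and 27 residual degrees of freedom, tested on simulated data. The 9 genes, the lists and the tests were chosen with earlier results of these data known. Beside the 9 genes the text names, per list and comparison, the called gene with the highest and that with the lowest fold change where it adds to the account, pathway partners fixed by name, and the 3 genes of most similar course. Alternatives were another pseudocount, filter, scaling, the TPM table, edgeR 4.0.16 on recovered reads, fits of 2 days, a replicate block and leaving out each library; 3 more were added after seeing the data. Sequences are from RefSeq (GRCr8).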

Additional observations from a re-analysis of the deposited data

Results flagged for a closer look

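In 6 of the 81 groups of 4 libraries checked (9 genes on 9 days), 1 library stood far from the other 3: its gap to the nearest of them, divided by the group's range, was above Dixon's 95% critical value for 4 samples. Chance alone flags about 1 group in 20. D11 library 1 was high for Isg15 (4.78 CPM, the others 2.96 to 3.07) and for Irf9 (26.5 CPM, the others 19.3 to 19.5). D10 library 1 was high for B2m (1257 CPM, the others 704 to 763). D0 library 1 was low for Cxcl10 (43.1 CPM, the others 49.3 to 50.5) and for B2m (779 CPM, the others 818 to 825). D1 library 4 was high for Psmb8 (25.78 CPM, the others 21.17 to 21.67).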

How the results depend on the processing

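For the 9 genes in the 3 main comparisons and their called steps, 988 of 1063 alternative values kept direction and call, 49 lost the call, 18 gained it and 8 changed sign. The changes of sign were Irf9 between D9 and D0 on TPM (log2 -0.26), B2m between D9 and D0 on TPM (-0.33), after quantile normalization (-0.33) and without single libraries (-0.0195 to 0.0357), Isg15 between D18 and D9 after quantile normalization (-0.17) and Stat2 between D18 and D9 on TPM (0.26). The number of the 9 genes called between D18 and D0, 7 with all libraries, ran from 4 to 7 without single libraries (47.7% to 48.9% of all genes called). It was 9 without the D10, D11 and D12 libraries (65.3% of all genes called) and 9 in the fit of the 8 libraries of the 2 days (64.5%). In such fits of 2 days it was 4 for D1 against D0 (42.1%) and 8 for D2 against D1 (63.5%). There it was 0 for D11 against D10 (15.1%) and 1 for D12 against D11 (9.26%). With 1 weight per library it was 7 for D2 against D1 (65.1%), 1 for D10 against D9 (16.5%) and 5 for D11 against D10 (41.7%). For D11 against D10 it was also 2 after quantile normalization (26.9%) and 0 with median-of-ratios size factors (27%). Without single libraries it was 0 to 2 (20.2% to 26.9%). All 6 ratio comparisons of Psmb8 and Psmb9 kept their direction; without single libraries they are values with no test.

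The sample numbers did not pair the libraries (136 pairs, r -0.324 to 0.396, median 0.0134, 115 at or under 0.1). With the replicate block 6 of the 9 genes were called between D18 and D0, beside 51.7% of all genes called. Psmb8 was lost (limma, adjusted p = 0.0512). Of all genes, 1002 instead of 1530 were called between D1 and D0.

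Counts over all genes depended on which days share the estimate of spread. In fits of 2 days, D1 against D0 gave 5263 calls, D2 against D1 7924 (5188 in the fit of all days), D3 against D2 4188 (1573), D10 against D9 114 (453), D11 against D10 1887 (3187), D12 against D11 1156 (4995) and D18 against D12 3578 (6110). Library weights gave 5560, 8124, 4384, 2058 and 5209 in the first 5 of these steps. For D10 against D9, quantile normalization gave 280 and leaving out single libraries as few as 221. On TPM the median of all genes moved to -0.34 between D9 and D0 and to 0.34 between D18 and D9, and 2518 of 9285 and 6713 of 8727 calls were higher, against 4300 of 8917 and 4195 of 8254 on CPM. After quantile normalization 5003 of 9047 and 3396 of 8398 were higher. On either scaling, Isg15, Cxcl10, Bst2, Irf7, Psmb8 and Psmb9 stayed lower at D9 than at D0. The causes of these differences were not tested.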
